A study of Homo sapiens with 6 samples.

Results

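Aminoacyl-tRNA synthetases were followed in A549 cells, a human lung adenocarcinoma line, after transient silencing of NME2. The 35 enzymes were taken from a list of gene symbols, with 19 cytosolic enzymes and 16 mitochondrial ones, whose symbols end in 2. A gene was measured where the array annotation gave a probe set its symbol and no other. Each probe set consists of several short oligonucleotides whose combined signal reads 1 transcript, or sometimes several alike. By this rule 32 of the 35 enzymes were measured, 17 cytosolic and 15 mitochondrial, among 12406 tested genes in all. MARS1, QARS1 and TARS2 were represented solely by probe sets with several symbols and have no value here.

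An aminoacyl-tRNA synthetase joins an amino acid to its tRNA and so supplies the ribosome with charged tRNA. Cytosol and mitochondria translate separately, and most amino acids therefore have an enzyme encoded by a separate nuclear gene for each compartment, although GARS1 and KARS1 serve both. Several cytosolic enzymes form a multi-synthetase complex. In amino acid shortage or endoplasmic reticulum stress the transcription factor ATF4 induces many of the cytosolic enzymes, and interferon gamma induces WARS1.

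The 3 NME2-depleted arrays carried RNA from A549 cells transfected with an siRNA duplex against NME2, a nucleoside diphosphate kinase that also binds DNA. The 3 control arrays carried RNA from the same line transfected with control duplexes. Both groups had thus been transfected, no untransfected cells were included, and the silencing was transient and in a single line. The submitters call the arrays of a group biological replicates, without describing separate cultures, so that the spread on which p-values rest is that between these arrays, which may be technical. In RNA from whole cultures, fewer cells of a kind and less RNA per cell cannot be told apart.

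The NME2 signal was 17862, 19389 and 21044.5 on the control arrays and 1920, 3676 and 3216 on the depleted ones, which checks the labels. This was 6.85-fold lower (log2 difference -2.78, SE 0.19, limma adjusted p = 0.00032). The only NME2 probe set also carries the symbol of a read-through transcript, an exception to the rule above, and may read that transcript too. All 7 epithelial markers of the line passed the filter on dim probe sets (mean log2 signal not below the median over all probe sets), against 1 of 5 leukocyte, 3 of 5 fibroblast and 1 of 4 endothelial markers, and 0 marker genes passed the adjusted threshold of 0.05. At an unadjusted p under 0.05 there were 3 of the 7 epithelial markers (42.9%, where 15.0% of all tested genes had such a p), EPCAM (log2 difference 0.71, limma adjusted p = 0.0884), CDH1 (0.21) and KRT8 (-0.24), each without overlap between the groups. The 3 measured fibroblast markers had higher means (median log2 difference 0.46), with overlapping groups, and the part of these markers in the results below was not tested. Of all tested probe sets 0.396% passed it (108 of 27307), and 8 to 63 did when any single array was left out. The ratio of the ACTB 3′ to 5′ probe sets, a sign of RNA length, lay between 1.20 and 1.30 in controls and between 1.33 and 1.40 in depleted cells, without overlap, and its part in the results below was not tested. Control replicate 1 stood apart in interferon-induced transcripts, at a median of 1.38 above each gene's mean over the 6 arrays on the log2 scale, against 0.019 and 0.24 on the other controls.

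Promoter sequences are shown for the members that carry a site on which the results below are read. RefSeq windows on GRCh38.p14, from 250 bases before to 50 after an annotated start, were available for 30 of the 35 enzymes and not for LARS1, VARS1, YARS1, AARS2 and VARS2. The letters TGATGCAA, the C/EBP-ATF element to which ATF4 binds, were searched on both strands. They occurred in 6 of 16 cytosolic enzymes (37.5%), in 0 of 14 mitochondrial ones and in 1.08% of all 27305 genes with a window. The carriers were AARS1, CARS1, IARS1, MARS1, NARS1 and TARS1, and 5 of these were measured. In the sequences below, read 5′ to 3′ on the strand of the gene, capitals mark the element, which appears as its reverse complement except in NARS1. In CARS1 the element spans the start itself, in IARS1 it lies at positions -13 to -6, in TARS1 at 3 to 10, in NARS1 at 15 to 22 and in AARS1 at -187 to -180, where 1 is the first transcribed base.
CARS1, minus strand of chr11:3057394-3057451: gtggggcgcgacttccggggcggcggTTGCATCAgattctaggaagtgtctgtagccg
IARS1, minus strand of chr9:92293677-92293736: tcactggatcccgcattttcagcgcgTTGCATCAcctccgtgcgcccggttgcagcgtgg
TARS1, plus strand of chr5:33440941-33440994: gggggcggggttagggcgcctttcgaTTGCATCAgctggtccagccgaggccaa
NARS1, minus strand of chr18:57621807-57621848: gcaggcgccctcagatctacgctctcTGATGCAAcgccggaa
AARS1, minus strand of chr16:70289660-70289719: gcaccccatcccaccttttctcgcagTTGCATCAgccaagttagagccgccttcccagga

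Another motif, the interferon-stimulated response element, was searched on both strands in the same windows. It occurred in 4.38% of all genes and, among the synthetases, in WARS1 and EARS2, and no member carried both motifs. WARS1 is shown because interferon-induced transcripts were lower in the depleted cells, as described further on. Capitals mark the element, at positions -55 to -46.
WARS1, minus strand of chr14:100375367-100375428: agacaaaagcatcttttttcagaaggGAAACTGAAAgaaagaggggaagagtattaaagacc
HARS1 and HARS2, the cytosolic and mitochondrial enzymes for histidine, lie head to head on opposite strands, and theirs were the only promoter windows of members that overlapped each other. The annotated starts are 85 bases apart, and capitals mark the bases from one start to the other. A match to a motif is a description of letters and not evidence of binding.
HARS1 and HARS2, plus strand of chr5:140691341-140691484: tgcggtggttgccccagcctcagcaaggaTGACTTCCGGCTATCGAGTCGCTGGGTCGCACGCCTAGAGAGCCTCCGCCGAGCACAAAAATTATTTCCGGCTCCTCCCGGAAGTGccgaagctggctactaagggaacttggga

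No synthetase passed the adjusted threshold after NME2 silencing. In limma, 0 of 32 genes and 0 of 56 tested probe sets had an adjusted p under 0.05, where 0.540% of all tested genes did, and the lowest adjusted p of a gene was 0.172, for SARS2. At an unadjusted p under 0.05 there were 6 genes (18.8%), against 15.0% of all tested genes. LARS1, IARS1 and CARS2 were higher, in a background of 7.25% for that direction, and CARS1, EPRS1 and SARS2 were lower, in a background of 7.75%. Among probe sets the count was 8 of 56, against 12.9% of all tested probe sets. The 3 depleted arrays lay wholly above or below the 3 controls in 8 of 32 genes (25%), against 20.6% of all genes. The members' shares thus lay near the background.

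Differences were small. Gene by gene the log2 difference, NME2-depleted minus control, ran from -0.35 to 0.26, and the median of its absolute value was 0.077, against 0.125 over all tested genes. The members' median SE was smaller too, at 0.086 against 0.120, so the smaller differences do not by themselves show that members changed less. For a gene with several tested probe sets the brightest was taken. The 95% limits of the 17 cytosolic genes reached at most 1.25-fold lower and 1.35-fold higher. Those of the 15 mitochondrial genes reached 1.53-fold lower and 1.48-fold higher. These intervals are not adjusted for the number of genes.

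**Figure D1:**
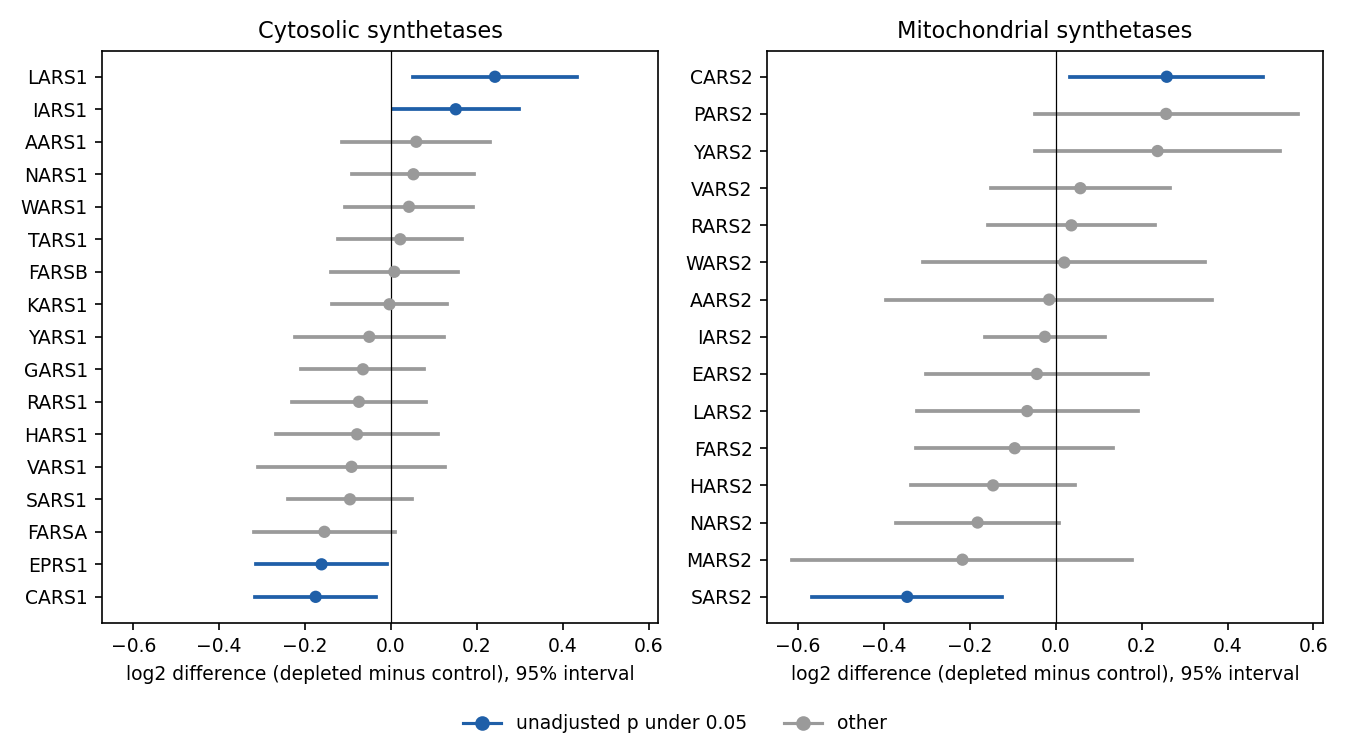
Log2 difference (NME2-depleted minus control, horizontal axis) of each measured synthetase with its 95% limma interval, cytosolic enzymes on the left and mitochondrial ones on the right. Blue marks the 6 genes with an unadjusted p under 0.05, and 0 of the 32 passed the adjusted threshold.

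CARS1, the cytosolic enzyme for cysteine, showed the member probe set closest to the threshold. Its second brightest probe set had signals of 2101, 2370.2 and 2276 on the control arrays and 1803, 1709.7 and 1537 on the depleted ones. Every depleted array lay below every control array. The log2 difference was -0.42 (SE 0.09, limma adjusted p = 0.0711). It passed when the filter was set at the 75th percentile (adjusted p = 0.045) and with the replicate number as a block (adjusted p = 0.0438), whereas leaving out single arrays gave adjusted p-values between 0.0849 and 0.222. The brightest CARS1 probe set had 10430.3, 10857 and 11218 in controls and 9827, 9236 and 9724 in depleted cells. The groups again did not overlap, with a smaller log2 difference of -0.18 (95% interval -0.32 to -0.03, adjusted p = 0.280). The third had 946.3, 971 and 1014 against 796.4, 915.5 and 768.5, without overlap (log2 difference -0.24, adjusted p = 0.339). All 3 tested CARS1 probe sets were thus lower, and the remaining one was too dim to be tested.

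The mitochondrial enzyme for cysteine, CARS2, lay in the opposite direction. Its signals were 597.8, 694.2 and 648.6 on the control arrays and 756.9, 773.2 and 787.3 on the depleted ones, so that all depleted arrays were above all controls. The log2 difference was 0.26 (95% interval 0.03 to 0.48, limma adjusted p = 0.318). Its other tested probe sets, both dim, gave 0.62 (adjusted p = 0.485) and 0.00.

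SARS2, which charges mitochondrial tRNA with serine, had the largest difference of the 32 genes. Signals were 960.8, 1071 and 966.5 in controls and 760.7, 858.4 and 741.9 in depleted cells, and the groups did not overlap. The log2 difference was -0.35 (SE 0.10, 95% interval -0.57 to -0.12, limma adjusted p = 0.172). Its cytosolic counterpart SARS1 gave -0.10 (adjusted p = 0.589) for the brightest probe set and 0.20 for the other, so that the direction of SARS1 was unsettled.

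The enzymes of the multi-synthetase complex did not share a direction. Of the 7 members listed, 5 were measured, and their median log2 difference was -0.00, with opposite signs among them. The median of the absolute difference was 0.15, against 0.125 over all tested genes. An unadjusted p under 0.05 was found for 3 of the 5 (60%), LARS1 and IARS1 higher and EPRS1 lower, against 15.0% of all tested genes. Outside the complex it was 1 of 12 cytosolic genes. LARS1, the leucine enzyme, which also acts as a leucine sensor for mTORC1, had 4124, 3575 and 3454 in controls and 4577, 4562.5 and 4036 in depleted cells. Control replicate 1 lay above the lowest depleted array, so the groups overlapped. The log2 difference was 0.24 (95% interval 0.05 to 0.43, limma adjusted p = 0.268). The next brightest LARS1 probe sets gave log2 differences of 0.15 and 0.08, and a dim one gave -0.08.

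IARS1, the isoleucine enzyme of the complex, had 19834, 19439 and 20873 in controls and 21096, 22225 and 23499 in depleted cells. All depleted arrays were the higher ones (log2 difference 0.15, 95% interval 0.00 to 0.30, limma adjusted p = 0.373). EPRS1 joins glutamate and proline to their tRNAs within a single polypeptide, and had 5009.7, 5456 and 5017 against 4505, 4809 and 4525. Here all depleted arrays were lower (log2 difference -0.16, adjusted p = 0.361), and the other EPRS1 probe sets gave -0.04 and -0.09. KARS1, the lysine enzyme, gave -0.00 and RARS1, the arginine enzyme, -0.07. AIMP1, the only scaffold protein of the complex measured among 3 listed, gave -0.02 (limma adjusted p = 0.924) on its brightest probe set, but -0.28 (adjusted p = 0.227) without probe sets shared between transcripts and -0.31 (adjusted p = 0.129) with its probe sets averaged.

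**Figure D2:**
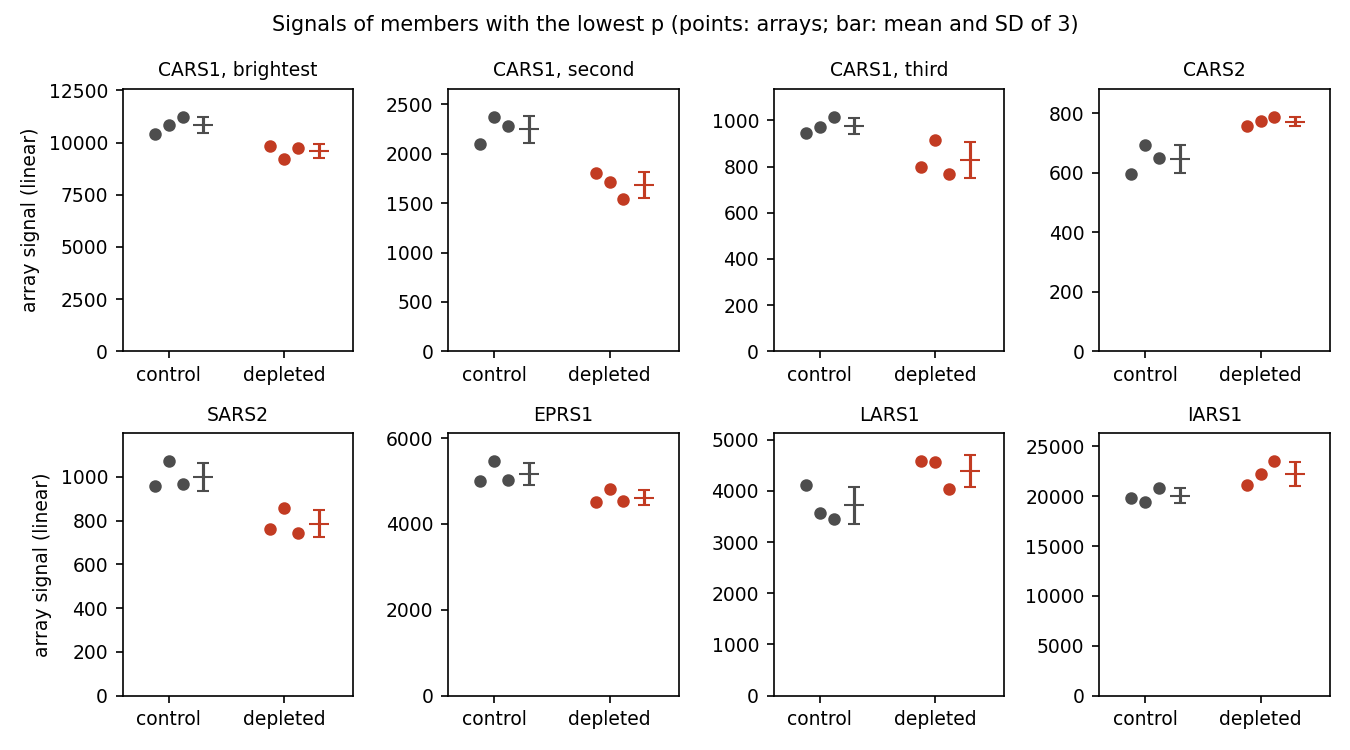
Array signals on a linear vertical axis that starts at 0, for the 3 tested CARS1 probe sets and for the brightest probe sets of CARS2, SARS2, EPRS1, LARS1 and IARS1. Each point is an array, with the group mean and SD (n = 3) beside the points. Depleted arrays lie apart from controls in every panel except that of LARS1.

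Among the other mitochondrial enzymes the groups mostly overlapped. PARS2, for proline, had 351.2, 303.9 and 394 in controls and 433, 402.1 and 412.1 in depleted cells, all of the latter higher (log2 difference 0.26, limma adjusted p = 0.470). YARS2, for tyrosine, had 747.3, 663.9 and 584.9 against 837.4, 844.1 and 672.2. Depleted replicate 3 lay among the YARS2 controls (log2 difference 0.24, adjusted p = 0.475). MARS2, for methionine, had 211.7, 236.7 and 238.6 against 175.2, 233.3 and 186.2, and depleted replicate 2 lay among the controls (log2 difference -0.22, adjusted p = 0.663). NARS2, for asparagine, had 2129, 2319 and 2013.5 against 1979, 1965 and 1750.7. All depleted arrays were the lower ones for NARS2 (log2 difference -0.18, adjusted p = 0.405).

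On their brightest probe sets the remaining mitochondrial genes lay closer to 0. They were HARS2 (log2 difference -0.15), FARS2 for phenylalanine (-0.10), LARS2 (-0.07), EARS2 for glutamate (-0.04), IARS2 (-0.03), AARS2 for alanine (-0.02), WARS2 for tryptophan (0.02), RARS2 (0.04) and VARS2 for valine (0.06). The second probe sets of FARS2 and WARS2 gave -0.23 and -0.18 (limma adjusted p = 0.456 and 0.671), both lower on all depleted arrays. Those of LARS2 and RARS2 gave -0.12 and -0.02, and the other EARS2 ones -0.15, -0.12 and 0.16. Of the remaining cytosolic genes, FARSA, the catalytic alpha subunit of the phenylalanine enzyme, was lower on all 3 depleted arrays, at 1839, 1833 and 1794 against 1682, 1642 and 1588 (log2 difference -0.15, limma adjusted p = 0.412). The second FARSA probe set gave 0.05, and FARSB, the beta subunit of the same enzyme, gave 0.01. The others were VARS1 (-0.09), HARS1 (-0.08), GARS1 for glycine (-0.06), YARS1 (-0.05), TARS1 for threonine (0.02), WARS1 (0.04), NARS1 (0.05) and AARS1 (0.06). A dim second TARS1 probe set gave -0.48, lower on all depleted arrays (limma adjusted p = 0.550), and those of VARS1 and YARS1 gave -0.02 and 0.11. Where a gene had several tested probe sets they disagreed in sign in 9 of 17 genes.

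**Figure D3:**
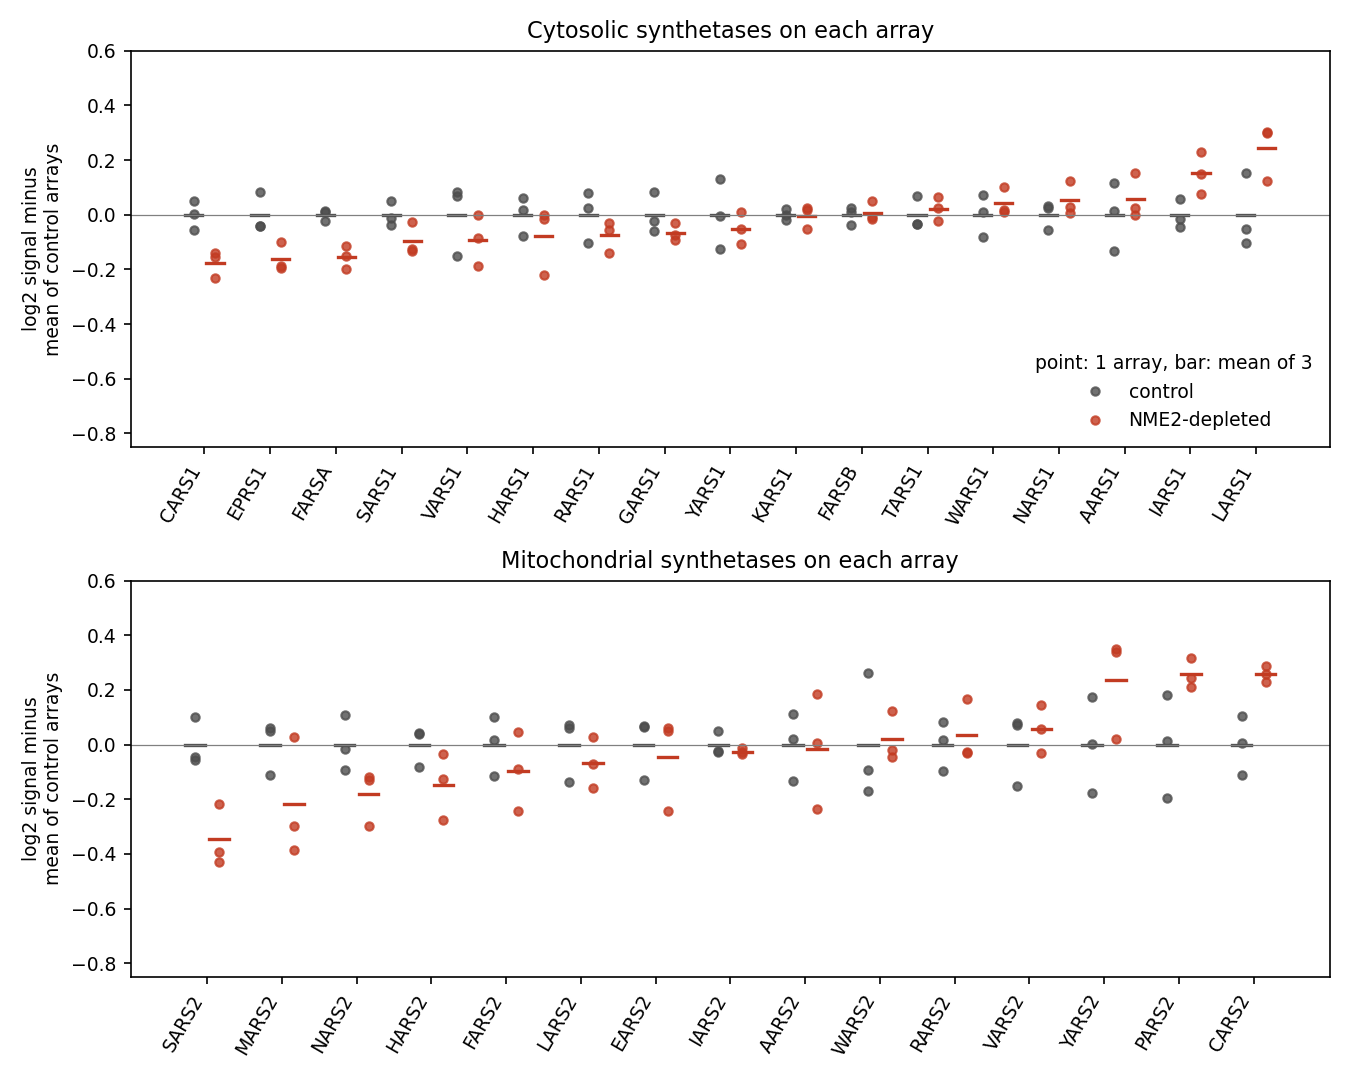
Log2 signal of each measured synthetase on each array, minus the mean of its 3 control arrays (vertical axis), with cytosolic enzymes above and mitochondrial ones below, in order of their difference. Points are arrays and bars are means of 3. The groups do not overlap in 8 of the 32 genes.

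Side by side, the enzymes of both compartments centred near 0. The cytosolic genes had a median log2 difference of -0.05, with 10 lower and 7 higher means, and the mitochondrial ones a median of -0.03, with 9 lower and 6 higher, where the median of all tested genes was 0.00. Per array, the median over the cytosolic genes of log2 signal above the gene's mean was 0.022, 0.0062 and 0.021 in controls and -0.017, -0.0030 and -0.014 in depleted cells. The groups did not overlap but were only a few hundredths apart. Leaving out probe sets shared between transcripts kept 26 of the 32 members and lost EPRS1, FARSB, GARS1, IARS1, LARS1 and VARS1. On the cytosolic genes that were kept the median was 0.02, over a changed set of genes. With probe sets averaged within genes, which kept all members, the cytosolic median was also 0.02, and so it had no settled direction. The mitochondrial medians were -0.0019, 0.062 and 0.030 in controls and -0.00024, 0.072 and -0.13 in depleted cells, and overlapped.

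Of 15 pairings of a cytosolic with a mitochondrial enzyme for the same amino acid, 10 differed in sign, 4 were both lower and 1 was both higher. EPRS1 and FARS2 each enter 2 pairings, and most differences lay within their intervals of 0. Only for CARS1 and CARS2 did both 95% intervals exclude 0, and on opposite sides. HARS1, at 2325, 2109.7 and 2254 in controls and 2226, 1911.5 and 2205.5 in depleted cells, was among those lower in both compartments (log2 difference -0.08, limma adjusted p = 0.749). HARS2, from the opposite strand of the shared promoter stretch shown above, had 2025, 2030.3 and 1864.5 against 1923.5, 1805 and 1629.9 (log2 difference -0.15, adjusted p = 0.521). The groups overlapped for both genes.

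**Figure D4:**
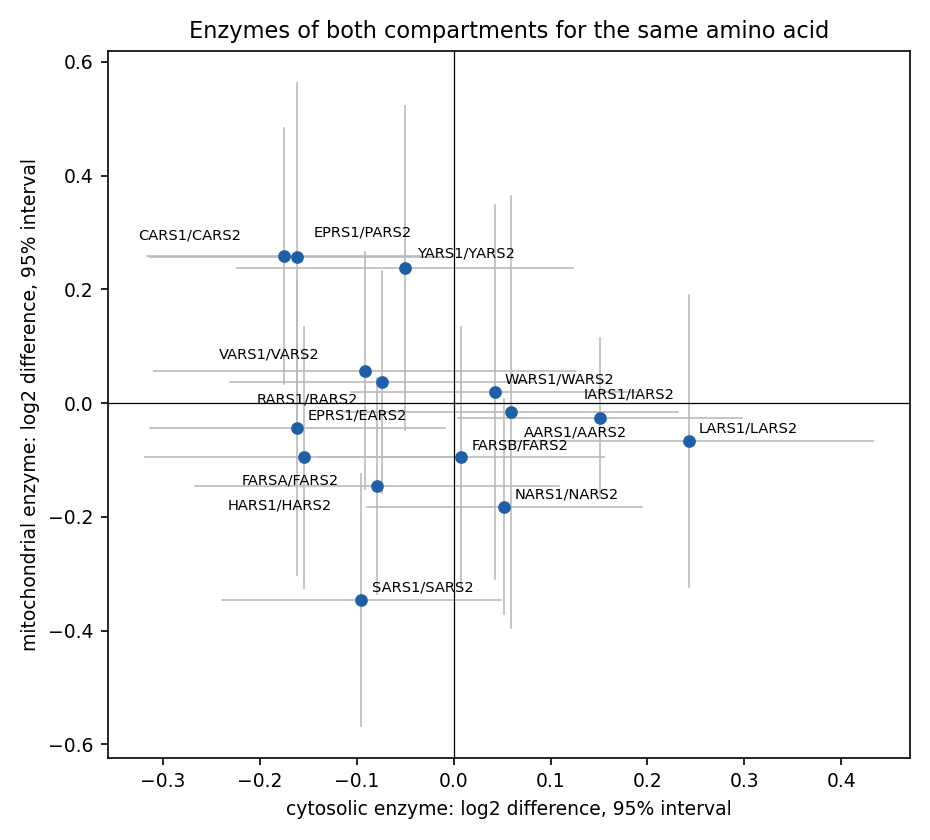
Log2 difference of the cytosolic enzyme (horizontal axis) against that of the mitochondrial enzyme (vertical axis) for 15 pairings by amino acid, with 95% intervals as grey lines. CARS1/CARS2 lies in the upper left with both intervals clear of 0, and SARS1/SARS2 lies lowest.

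The synthetases known to respond to ATF4 were also of mixed sign. Of 12 such cytosolic enzymes 11 were measured, 6 with higher and 5 with lower means, with a median log2 difference of 0.02, and the 6 other cytosolic enzymes had a median of -0.08. On their brightest probe sets, carriers of the ATF4 element shown above ran from CARS1 at -0.18 through TARS1 at 0.02, NARS1 at 0.05 and AARS1 at 0.06 to IARS1 at 0.15. The second probe sets of CARS1 and TARS1, the latter dim, gave -0.42 and -0.48, while AARS1, IARS1 and NARS1 had 1 probe set each. ATF4 mRNA itself was 13005, 12764 and 13848 in controls and 13425, 12334 and 14187 in depleted cells, and the groups overlapped (log2 difference 0.01, limma adjusted p = 0.970). ATF4 is controlled mainly in translation, which arrays do not measure.

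Genes of the wider ATF4 and amino acid response had higher means in 22 of 33 measured members, against 50.2% of all tested genes. Their median log2 difference was 0.09, which was 0.039 with median centring (17 higher) and 0.15 on unshared probe sets. Again 0 of the 33 passed the adjusted threshold. With the replicate number as a block 4 did, as did 464 of all 27307 tested probe sets. An unadjusted p under 0.05 was reached by 12 of the 33 (36.4%), where the background was 15.0%. Of these 9 were higher and 3 lower, in backgrounds of 7.25% and 7.75%. The 3 lower ones were SLC7A5 (log2 difference -0.34, limma adjusted p = 0.142), ATF3 (-0.29) and NUPR1 (-0.25), each without overlap between the groups. ASNS, asparagine synthetase, had 6744, 6869 and 6733 in controls and 8212, 7764 and 7901 in depleted cells. All depleted arrays were above all controls (log2 difference 0.23, limma adjusted p = 0.140). ALDH1L2, a mitochondrial enzyme of folate metabolism, had 587.5, 609.7 and 575.7 against 953.9, 752.5 and 784.2, again without overlap (log2 difference 0.48, adjusted p = 0.109), but the mean of its probe sets gave -0.01. VLDLR, a lipoprotein receptor, had 1738, 1583 and 1846 against 2191, 2026 and 2297, also apart (log2 difference 0.34, adjusted p = 0.130), and passed with the replicate block (adjusted p = 0.047). Of the 6 genes listed for eIF2 alpha kinases and GCN1, which act upstream of ATF4, 0 passed. EIF2AK2, the interferon-induced kinase PKR, gave -0.39 (limma adjusted p = 0.274), with -0.21 when control replicate 1 was left out and -0.66 (adjusted p = 0.0785) on unshared probe sets, and EIF2AK4, the kinase GCN2 that senses uncharged tRNA, gave 0.22 (adjusted p = 0.401).

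WARS1 was read beside the interferon genes because it is itself interferon-induced. Its signals were 9537, 8946 and 9949.7 in controls and 10147, 9588 and 9525 in depleted cells, and the groups overlapped. The log2 difference was 0.04 (95% interval -0.11 to 0.19, limma adjusted p = 0.839), and the other WARS1 probe set gave 0.03. All 29 measured genes of the interferon response list had lower means, with a median of -1.05, and 3 passed the threshold. Over all tested genes 49.8% had lower means and 0.540% passed. Without control replicate 1 the median was -0.70, all 29 means were still lower, and 4 genes passed, where 63 of all tested probe sets did. MX1, an antiviral GTPase, had 3299, 531.3 and 697.8 in controls and 144.6, 144.9 and 112.3 in depleted cells, with control replicate 1 far above the others (log2 difference -3.01, adjusted p = 0.0379). Without that array the difference was -2.19 and still passed (adjusted p = 0.00522), whereas without control replicate 3 or any 1 of the depleted arrays it did not (adjusted p from 0.0751 to 0.139). IRF9, a transcription factor of the response (-1.11, adjusted p = 0.0386), passed solely without control replicate 2 (adjusted p = 0.00548) and otherwise reached 0.0656 to 0.142. IFITM2, a membrane protein that restricts viral entry (-0.62, adjusted p = 0.0307), passed solely without control replicate 1 (adjusted p = 0.042) and otherwise reached 0.0673 to 0.124.

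Among interferon gamma targets, the group to which WARS1 is closest, all 12 measured genes had lower means, with a median of -0.26, and 0 passed. The common direction rested on control replicate 1: without it 8 of 12 means were lower and the median was -0.069. IRF1, TAP1, NLRC5 and GBP3 then lay between 0.00 and 0.16. Of those still lower, GBP2 went from -0.64 to -0.92 and SOCS1 from -0.31 to -0.35, both dim, while the others shrank. TAP2, a peptide transporter for antigen presentation, had -0.44 (limma adjusted p = 0.350), or -0.25 without that array, and PSMB8, an immunoproteasome subunit, -0.25 (adjusted p = 0.368). The element marked in the WARS1 promoter was found in 11 of 14 of these targets with a window (78.6%) and in 20 of 30 genes of the interferon response list (66.7%). The difference between WARS1 and these lists was not tested.

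Steps before and after charging gave 0 genes past the threshold in each list. Genes of tRNA processing and modification had lower means in 32 of 42 measured, with a median log2 difference of -0.07, and 6 (14.3%) had an unadjusted p under 0.05, all lower. Over all tested genes 49.8% had lower means, 15.0% had such a p and 7.75% had it in the lower direction. Without depleted replicate 3 the list had 28 lower means, a median of -0.022 and 4 such genes. TSEN54, a subunit of the tRNA splicing endonuclease, had 1070.1, 1096 and 1056 in controls and 866.6, 899 and 771.6 in depleted cells, without overlap (-0.35, limma adjusted p = 0.144). POP5, a protein subunit of RNase P, had 4809, 5077 and 4831 against 4130.4, 4354 and 3835, likewise apart (-0.26, adjusted p = 0.153). RNA polymerase III and its factors, which transcribe tRNA genes, had a median of -0.06 over 20 measured genes, which turned to 0.034 on unshared probe sets and 0.020 with probe sets averaged. POLR3A, the largest subunit, gave -0.41 (adjusted p = 0.194), and GTF3C5, a subunit of TFIIIC, gave -0.24 (adjusted p = 0.273) but 0.05 on probe sets not shared between transcripts.

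Partners of charging, such as the mitochondrial amidotransferase, had a median of -0.01 over 9 measured genes. Its subunits GATB and QRSL1 gave -0.20 (limma adjusted p = 0.531) and -0.09 (adjusted p = 0.733), and QRSL1 turned to 0.08 on unshared probe sets. Cytosolic elongation factors, which carry charged tRNA to the ribosome and move it along, had a median of -0.05 over 5, with no settled sign when arrays were left out (-0.10 to 0.0060). EEF1A2 gave -0.26 (adjusted p = 0.213) and EEF2, the translocation factor, 0.14 (adjusted p = 0.507), the latter 0.079 without depleted replicate 3. Mitochondrial translation factors had a median of 0.01 over 13. MTIF3, an initiation factor, gave -0.39 (adjusted p = 0.132) and MTRFR, a ribosome rescue factor, 0.21 (adjusted p = 0.497), the latter 0.094 without control replicate 3.

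**Figure D5:**
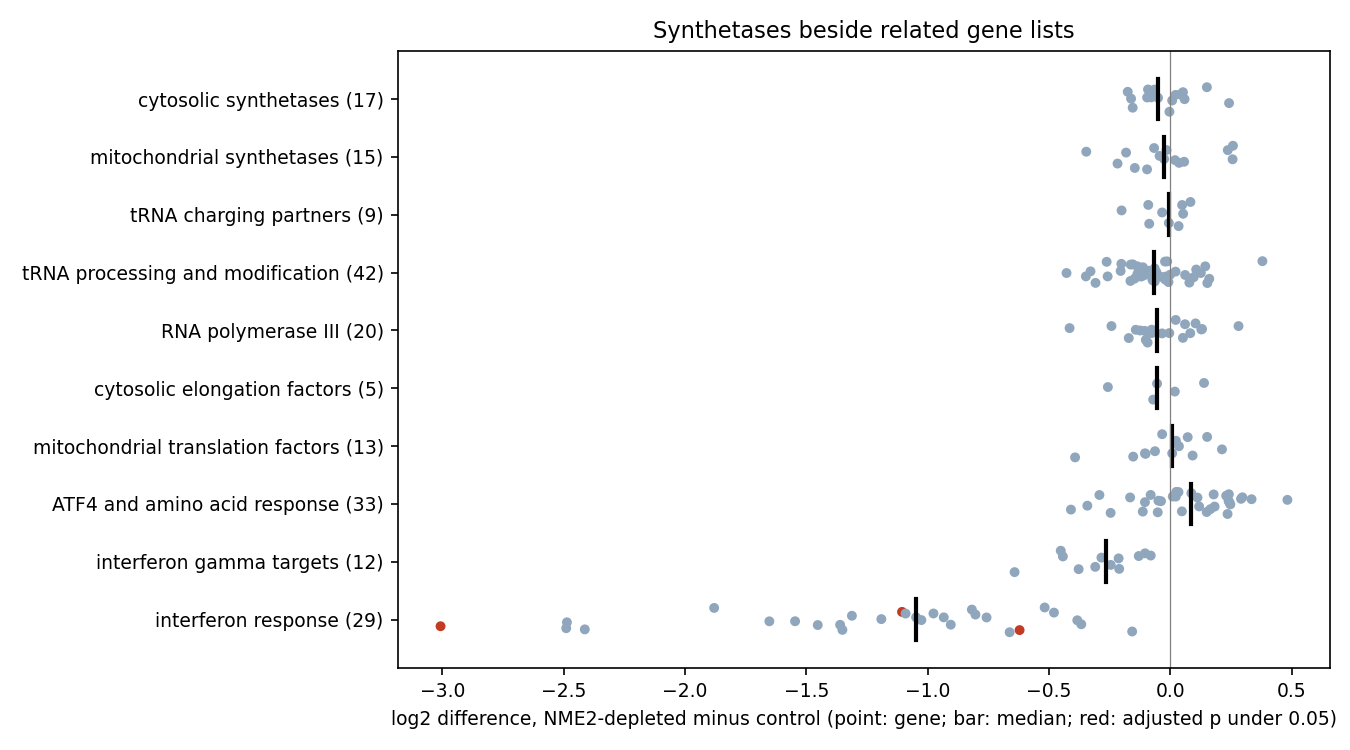
Log2 difference (NME2-depleted minus control, horizontal axis) of each measured gene in 10 gene lists, with the number of genes in brackets. Black bars are medians, and red points are the 3 genes with a limma adjusted p under 0.05, all in the interferon response list, whose median is -1.05 where those of the synthetases are -0.05 and -0.03.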

How the data were processed

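RNA from 3 NME2-depleted and 3 control A549 samples was hybridised to Affymetrix HG-U133 Plus 2.0 arrays, 1 sample to an array. The deposited values are linear intensity signals per probe set, made with GCOS 1.1.1 according to the submitters' processing notes. They showed a common scaling by the authors (2%-trimmed means of 500.06 to 500.07 on all arrays), which hides any change common to the whole transcriptome. The 62 control probe sets were left out, signals below a floor of 1 (0.327%) were raised to it, and log2 values were used without another normalization. Probe sets with a mean at or above the median, a signal of 71.7, were tested (27307). Symbols came from the platform annotation of 2016. Groups were compared in limma 3.58.1 (R 4.3.3), with lmFit and eBayes with an intensity trend, two-sided, adjusted by Benjamini-Hochberg over all tested probe sets. The procedure was tested on simulated data. Array number, 3 per group, limits the precision.

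Members and lists were chosen with earlier results of these data known. Values on each array were given for members with an unadjusted p under 0.05 or among the 8 largest absolute differences, and each list was represented by genes past the threshold, or else by its 2 of lowest p, with ATF4 and ASNS in any case. FARSA, WARS1, HARS1 and HARS2 were added after their values were seen. So were SLC7A5, ATF3, NUPR1, the interferon gamma targets beyond TAP2 and PSMB8, and the single probe sets. Alternatives covered array scaling, low signals, filters, shared probe sets, variance models, a replicate block, each array left out, the methods' t-test, thresholds and averaging over probe sets of a gene. Lists under every alternative were added after seeing the data.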

Additional observations from a re-analysis of the deposited data

How the results depend on the processing

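No synthetase gene passed the adjusted threshold under any alternative, and the count became 6 at an unadjusted p under 0.05 by limma and 6 by the methods' t-test. The count over all probe sets was 108, and became 30 with no filter, 192 with the filter at the 75th percentile, 62 without shared probe sets, 0 with no intensity trend, 464 with the replicate block, 0 with the methods' t-test after Benjamini-Hochberg adjustment, 3521 at an unadjusted p under 0.05 by limma and 3065 by that t-test. It was 8 to 63 with each array left out. Same-numbered arrays correlated by 0.114, 0.0805 and 0.0702 in their deviations from group means, so the numbers were not taken to pair the arrays. The block moved the count over all probe sets, and it let the second CARS1 probe set and VLDLR pass. By list, 2 of 7 epithelial markers, 4 of 33 ATF4 and amino acid response genes and 13 of 29 interferon response genes passed with it. Of all 27307 tested probe sets 464 did. In the main fit the list counts were 0, 0 and 3.

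The cytosolic median of -0.05 became -0.039 with quantile normalization, -0.10 with median centring and 0.021 with probe sets averaged within genes. It was 0.022 without shared probe sets, which kept 26 of the 32 members, and lay from -0.051 to -0.014 with each array left out. The mitochondrial median moved by less than its spread between arrays. Median centring turned ATF4 (-0.038), FARSB (-0.040), RARS2 (-0.012), TARS1 (-0.026), WARS1 (-0.0061) and WARS2 (-0.028), the dimmer WARS1 probe set (-0.021) and the dim CARS2 probe set that gave 0.00 (-0.044), the last also turned by quantile normalization (-0.036) and cyclic loess (-0.032). Leaving out shared probe sets turned FARSA (0.051), GTF3C5 (0.045), QRSL1 (0.079) and YARS1 (0.11). Averaging over probe sets turned ALDH1L2 (-0.0052), KARS1 (0.021), QRSL1 (0.070), SARS1 (0.051), TARS1 (-0.23), WARS2 (-0.079) and YARS1 (0.030). Array weights turned AARS2 (0.026) and WARS2 (-0.035). Averaging also moved CARS1 to -0.28, EPRS1 to -0.097 and LARS1 to 0.099. Averaging gives each tested probe set of a gene equal weight, and leaving out shared ones puts another probe set in place of the brightest. Why probe sets of a gene differed was not tested.

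With each array left out, 22 of 32 members kept their sign, among them CARS1, CARS2, SARS2, LARS1, IARS1 and EPRS1. Ranges that crossed 0 were AARS1 -0.0063 to 0.12, AARS2 -0.12 to 0.095, EARS2 -0.11 to 0.055, FARSB -0.012 to 0.021, KARS1 -0.018 to 0.022, RARS2 -0.028 to 0.077, TARS1 -0.00038 to 0.056, VARS2 -0.019 to 0.10, WARS2 -0.065 to 0.15, YARS1 -0.11 to 0.015, and outside the members AIMP1 -0.071 to 0.011 and ATF4 -0.037 to 0.064. So did those of the dim CARS2 probe set (-0.066 to 0.052), the third and second EPRS1 probe sets (-0.22 to 0.091 and -0.12 to 0.062), the second FARSA probe set (-0.029 to 0.10), and the third and the dimmest LARS1 probe sets (-0.0014 to 0.19 and -0.24 to 0.17). HARS2 moved to -0.082 without depleted replicate 3, PARS2 to 0.16 without control replicate 2, YARS2 to 0.15 without control replicate 3, and MARS2 to -0.13 and -0.34 without depleted replicates 1 and 2. Arrays give no depth. The dim CARS2 probe sets lay near the filter's signal of 71.7.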
